A study of Mus musculus with 9 samples.

Results

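The mouse genes whose symbols begin with Nduf encode the subunits and assembly factors of mitochondrial complex I, and their transcript levels were examined in brown adipose tissue (BAT). Every symbol beginning with Nduf that had a value above 0 in all 9 libraries was taken, which gave 45 of the 45 such symbols, among 14675 symbols above 0 in every library and 24356 symbols in all. They comprised 7 core subunits, 29 accessory subunits, 7 assembly factors (Ndufaf1 to Ndufaf7) and the pair Ndufa4 and Ndufa4l2, which carry the family's name although Ndufa4 is now counted as part of cytochrome c oxidase. Ndufb1 and Ndufaf8, and the core subunits encoded by mitochondrial DNA, were not analysed here.

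Complex I takes electrons from NADH and passes them along a chain of iron-sulphur clusters to ubiquinone, and it pumps protons across the inner mitochondrial membrane while doing so. The core subunits carry out this chemistry, the accessory subunits surround and stabilise them, and the assembly factors help to build the complex but are absent from the finished enzyme. Brown adipocytes are packed with mitochondria, and their uncoupling protein Ucp1 lets the proton gradient run down as heat.

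The study compared GHRH-KO mice, a germline deletion that lowers growth hormone, with littermate controls of wild type (WT) on the same mixed C57BL6 and 129SV background. BAT was taken from 3 WT females, 2 KO females, 2 WT males and 2 KO males. The study counts 9 animals for the 9 libraries, and each title carries a genotype, a sex letter and a number. All animals were fed chow without restriction and housed under the same conditions. Their ages were not given in the sources used here. Levels are in FPKM, fragments per kilobase of transcript scaled to the mapped fragments of the library, so that levels can be set side by side between genes.

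The targeted gene ran against the labels. Ghrh was at 0 FPKM in each of the 5 WT libraries. KO female 1 and KO female 2 had 0.846 and 0.233 FPKM of it, and KO male 1 and KO male 2 had 0.799 and 0.470 FPKM (two-sided exact permutation test, 126 splits, p = 0.00794, the smallest possible). Every direction below is therefore between libraries labelled KO and libraries labelled WT, and the part of the deleted gene that these reads covered was not tested. Summed FPKM ran from 380558 to 443569 per library, and the number of reads is unknown. Ucp1 was between 1357 and 2992 FPKM in every library, so the labelled tissue held its defining marker at a high level in all 9. KO male 1 stood apart, with rank correlations of 0.924 to 0.934 with the other libraries and a summed level of 8 lymphocyte markers of 204 FPKM against 1.75 to 3.64 FPKM elsewhere, so the leading results are also given without it. The summed level of 12 skeletal muscle markers was 2450 to 11300 FPKM in KO-labelled libraries and 400 to 2110 FPKM in those labelled WT. Of the 12, 7 were higher in every KO than in every WT library, as were 3.03% of all genes, and 3 were called higher. The summed level of 6 fibroblast markers was 113 to 194 FPKM against 150 to 270 FPKM. Of the 6, 4 were lower in every KO than in every WT library, as were 6.04% of all genes, and 4 were called lower. White adipocyte markers summed to 36.3 to 94.6 FPKM against 83.9 to 332 FPKM and erythroid markers to 536 to 1170 FPKM against 808 to 2320 FPKM, with 1 of 6 tested in each called lower. Calls here are at a limma adjusted p under 0.05 averaged over the sexes, where 3.6% of all genes were called in either direction. The part of these markers in the results below was not tested, and in bulk tissue fewer cells of a type cannot be told apart from less RNA per cell.

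Complex I transcripts were among the most abundant in the tissue, and subunits stood far above assembly factors. The median subunit was above 98.8% of all genes tested. The core subunits had a median mean level of 379.9 FPKM, with Ndufs1 lowest at 213.5 FPKM, and the accessory subunits had mean levels of 42.8 FPKM (Ndufa11) to 1082 FPKM (Ndufb9). The 7 assembly factors lay between 6.71 FPKM (Ndufaf5) and 30.97 FPKM (Ndufaf1). The median subunit was thus 30.6 times the median assembly factor, and 36 of the 36 subunits had a mean above the highest assembly factor. Ndufa4 had the highest level of all 45, with a mean of 1632 FPKM, while its hypoxia-responsive paralog Ndufa4l2 had a mean of 7.17 FPKM. Together the 45 genes took 3.39 to 4.4% of the summed FPKM of a library. The lowest shares were in KO male 2 (3.39%) and KO male 1 (3.42%) and the highest in WT female 2 (4.4%).

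**Figure D1:**
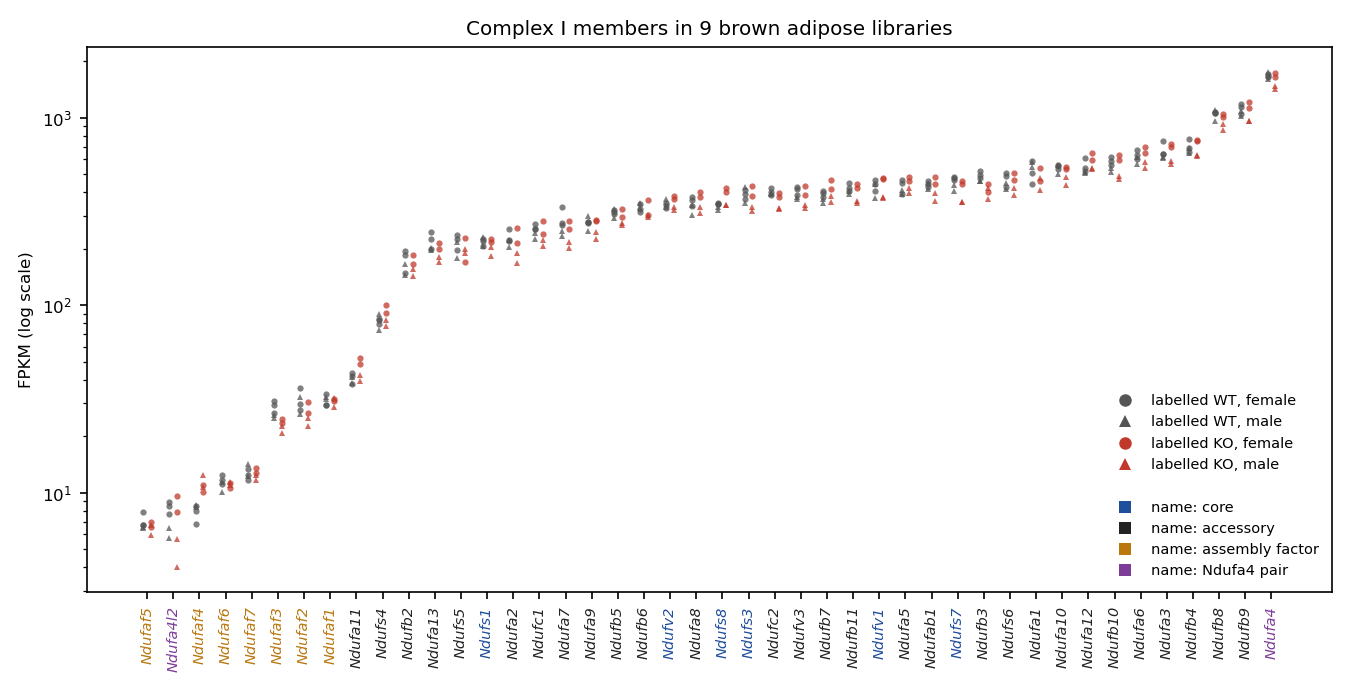
FPKM (log axis) of 44 of the 45 genes in the 9 libraries, with genes ordered by mean level and 1 point per library, circles for females and triangles for males, grey for libraries labelled WT and red for those labelled KO. Assembly factors (orange names) lie at the left between means of 6.71 and 30.97 FPKM, and subunits (blue and black names) start at Ndufa11 with a mean of 42.8 FPKM.

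Levels of the complex varied little from library to library. The median coefficient of variation over the 9 libraries was 9.35% for the 36 subunits, against 20.1% for all genes tested. It was like that of other mitochondrial genes, at 8.96% for complexes II to V, 8.85% for the mitochondrial ribosome and 7.74% for the assembly factors. The steadiest member was Ndufaf1 at 5.25%, and the most variable were Ndufa4l2 at 25.1% and Ndufaf4 at 18.8%.

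The promoters of 4 members are shown because these genes stood out in the comparisons below. The sequences come from RefSeq (GRCm38.p6) and run 5′ to 3′ on the strand of the gene up to the base before its annotated start, with capitals marking the letters GCGCATGCG on either strand, the core of the binding motif of NRF1, a nuclear factor known for driving respiratory chain genes. For Ndufa11 only the stretch outside an untranslated exon of its neighbour Vmac is given. They are Ndufaf4 at chr4:24897958-24898082 (plus strand), Ndufaf3 at chr9:108567437-108567561 (minus strand), Ndufa11 at chr17:56717686-56717761 (plus strand) and Ndufs8 at chr19:3912775-3912899 (minus strand).
Ndufaf4: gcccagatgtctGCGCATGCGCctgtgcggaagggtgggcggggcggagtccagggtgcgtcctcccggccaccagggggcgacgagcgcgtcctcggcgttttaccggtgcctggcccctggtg
Ndufaf3: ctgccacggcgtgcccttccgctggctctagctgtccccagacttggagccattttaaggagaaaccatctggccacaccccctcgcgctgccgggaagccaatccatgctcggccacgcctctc
Ndufa11: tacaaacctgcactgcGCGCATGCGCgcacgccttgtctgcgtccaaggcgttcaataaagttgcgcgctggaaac
Ndufs8: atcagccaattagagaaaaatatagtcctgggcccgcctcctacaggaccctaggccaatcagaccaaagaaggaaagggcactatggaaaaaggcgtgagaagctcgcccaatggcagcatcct
The NRF1 letters began 113 bases before the start of Ndufaf4 and 60 before that of Ndufa11, and in each the matches on the 2 strands overlap to give a run that reads the same both ways.

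Of the 45 members, 39 had an entry among the RefSeq promoters, each running from 250 bases before to 50 after the start. The NRF1 letters were in 4 of the 39 (10.3%; Ndufa8, Ndufa11, Ndufaf4 and Ndufaf5) and in the promoters of 1.95% of all 27025 symbols. The letters AAGATGGCG of the factor YY1, sought on both strands, were in 5 (12.8%) against 1.64%, namely in Ndufa9, Ndufc1, Ndufs4, Ndufs6 and Ndufs7, and in each they lay after the start. The letters ACCGGAAG of the factor GABPA were in 4 (10.3%; Ndufaf1, Ndufb6, Ndufs3 and Ndufs8) against 2.6%. The letters TCAAGGTCA of the oestrogen-related receptors were in 0 of the 39 and in 0.466% of all promoters. No promoter of a member held more than 1 of these 4 motifs. Base composition was not matched between members and other genes, and a match describes the letters, not binding.

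The 45 genes lie on 16 chromosomes, with at most 6 on 1 chromosome, so they are spread through the genome. Several share sequence or exons with other genes, which could divide or add fragments. Stretches of 50 bases found in transcripts of other genes made up 37.0% of Ndufb4, 35.8% of Ndufs3, 26.2% of Ndufa12, 23.4% of Ndufb9 and 21.7% of Ndufs5, and 0% of Ndufaf4, Ndufaf3, Ndufs7, Ndufs8 and Ndufc2. Exons of 17 members overlap exons of a gene on the opposite strand, and whether counting used the strand was not given in the sources used here. Exons of 3 members overlap those of a gene on the same strand, which stranded counting would not separate. They are Ndufb9 (201 bases, Gm49356), Ndufb2 (145 bases, Gm42420) and Ndufb8 (134 bases, Gm20538).

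The first question was whether the libraries labelled KO and WT differed in the complex. Limma was fitted over all 14675 genes, with Benjamini-Hochberg adjustment and a threshold of 0.05. By that measure 0 of the 45 members passed in females, in males, or averaged over the sexes. Over all genes 0.0204%, 0.0136% and 3.6% passed. At an unadjusted p under 0.05 there were 5 members in females, 3 in males and 7 averaged over the sexes, where 12.7%, 16.6% and 20.2% of all genes were found. With an ordinary linear model at an unadjusted p under 0.01, the counts were 1 (Ndufs8), 2 (Ndufc2 and Ndufs7) and 5 (Ndufs8 and Ndufaf4 higher, Ndufs7, Ndufc2 and Ndufaf3 lower), against 3.43%, 5.29% and 7.54% of all genes. The members' shares were at or under the background except for 11.1% against 7.54% in the last of these, which is 5 genes. Standard errors of the members' averaged differences were 0.07 at the median on the log2 scale and 0.13 at the most. Averaged differences of 0.44 (Ndufaf4) and -0.25 (Ndufaf3) did not pass, so the absence of calls does not exclude changes of such sizes.

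Among the core subunits the log2 differences within a sex lay between -0.25 and 0.25. In females 5 of 7 were above 0, and in males 6 of 7 were below 0. The direction in females depended on the scale for the members as a whole, as given below. Ndufv1, which binds NADH, was at 442, 408 and 464 FPKM in WT females and 469 and 474 FPKM in KO females, and at 443 and 372 FPKM in WT males and 371 and 377 FPKM in KO males. Its KO libraries were above the WT ones in females and overlapped them in males, with log2 differences of 0.11 (SE 0.10) and -0.12 (SE 0.11). Ndufv2, its iron-sulphur partner, was at 351, 329 and 340 FPKM in WT females and 368 and 380 FPKM in KO females. In males Ndufv2 was at 369 and 334 FPKM in WT and 320 and 332 FPKM in KO, so the sexes again lay on opposite sides. Ndufs1, the largest core subunit, was at 208, 220 and 224 FPKM in WT females, 219 and 226 FPKM in KO females, 230 and 207 FPKM in WT males, and 184 and 205 FPKM in KO males. For these 3 genes, which make up the NADH-oxidising tip, the averaged differences were between -0.07 and 0.02 and the lowest limma adjusted p was 0.646.

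The core subunits of the ubiquinone-reducing part included the 2 that differed most between the labels. Ndufs3, a scaffold of that part, was at 412, 370 and 393 FPKM in WT females, 384 and 434 FPKM in KO females, 427 and 350 FPKM in WT males and 317 and 334 FPKM in KO males. It overlapped between labels in females and lay lower in KO males than in WT males.

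Ndufs8, which carries a pair of iron-sulphur clusters, was at 350, 347 and 344 FPKM in WT females, 402 and 421 FPKM in KO females, 335 and 320 FPKM in WT males and 341 and 344 FPKM in KO males. The KO libraries lay above the WT ones within each sex. The log2 difference was 0.25 (SE 0.07) in females, with a limma adjusted p of 0.242, and 0.07 (SE 0.08) in males, with an adjusted p of 0.749. Averaged over the sexes Ndufs8 was at 1.11 times the WT level (log2 0.16, SE 0.05, limma adjusted p = 0.156), which did not pass. Ndufs7, which holds the last iron-sulphur cluster before ubiquinone, went the other way. It was at 484, 477 and 467 FPKM in WT females, 443 and 460 FPKM in KO females, 438 and 409 FPKM in WT males and 356 and 355 FPKM in KO males, so the KO libraries were lower within each sex. The averaged log2 difference of Ndufs7 was -0.16 (SE 0.06, limma adjusted p = 0.152).

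These 2 subunits went in opposite directions and are neighbours in the enzyme. Their ratio was also taken within each library, where the scale of the library drops out. The ratio of Ndufs8 to Ndufs7 was 0.722, 0.727, 0.738, 0.765 and 0.783 in the libraries labelled WT and 0.907, 0.915, 0.960 and 0.970 in those labelled KO. The means were 0.747 ± 0.0258 (SD, n = 5) and 0.938 ± 0.0313 (SD, n = 4), and the groups did not overlap. The pair was chosen after its values were seen, so no test is given.

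**Figure D2:**
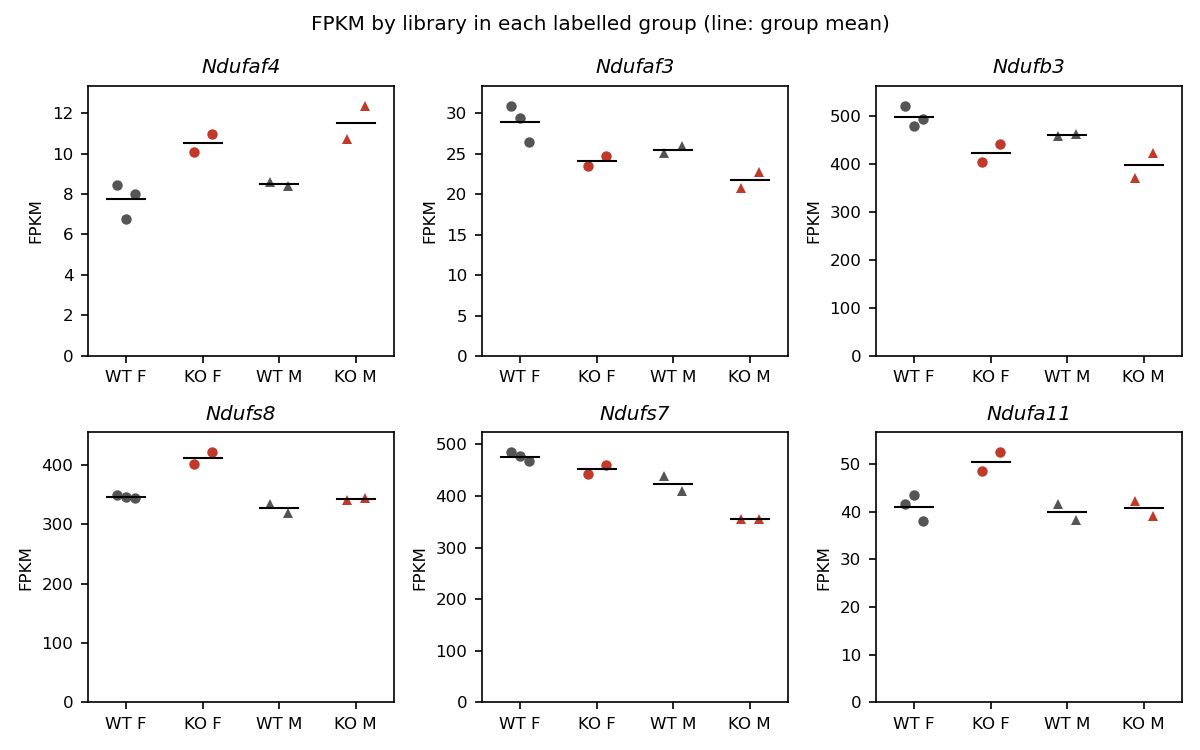
FPKM of 6 members in the 4 labelled groups (F, female; M, male), with 1 point per library and a line at the group mean; each axis starts at 0. Ndufaf4 is higher in all 4 libraries labelled KO than in all 5 labelled WT, Ndufaf3 and Ndufb3 are lower in all 4, and Ndufs8, Ndufs7 and Ndufa11 overlap when the sexes are pooled.

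The assembly factors held the member nearest to the threshold. Ndufaf4 works with Ndufaf3 on the early ubiquinone-reducing intermediate and is encoded at chr4:24898083-24905001 (GRCm38, plus strand). It was at 8.45, 6.77 and 8.03 FPKM in WT females, 10.1 and 10.97 FPKM in KO females, 8.60 and 8.37 FPKM in WT males, and 10.7 and 12.4 FPKM in KO males. All 4 libraries labelled KO lay above all 5 labelled WT, a pattern seen for 1 of the 45 members and for 3.03% of all genes. The means were 11.03 ± 0.958 (SD, n = 4) and 8.04 ± 0.743 (SD, n = 5) FPKM. The log2 difference of Ndufaf4 was 0.45 (SE 0.13) in females and 0.44 (SE 0.14) in males, with limma adjusted p of 0.241 and 0.174. Averaged over the sexes it was 0.44 (SE 0.10), a ratio of 1.36, with a limma adjusted p of 0.0505, just outside the threshold. Without KO male 1 the averaged log2 difference was 0.49 (SE 0.10, limma adjusted p = 0.0529).

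Ndufaf3, its partner, was at 30.9, 29.5 and 26.4 FPKM in WT females, 23.5 and 24.8 FPKM in KO females, 25.1 and 26.0 FPKM in WT males and 20.8 and 22.7 FPKM in KO males. All libraries labelled KO lay below all labelled WT. This was so for 2 of the 45 members and for 6.04% of all genes. The averaged log2 difference of Ndufaf3 was -0.25 (SE 0.07, limma adjusted p = 0.101), a ratio of 0.843, and -0.21 (SE 0.08, limma adjusted p = 0.149) without KO male 1. Its exons overlap those of Impdh2, on the opposite strand, by 48 bases. The ratio of Ndufaf4 to Ndufaf3 was 0.483 ± 0.0552 (SD, n = 4) in the libraries labelled KO and 0.294 ± 0.0443 (SD, n = 5) in those labelled WT, again chosen after the values were seen. Since Ndufaf4 was higher and Ndufaf3 lower in every KO library, the direction of this ratio was fixed by their values.

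The other 5 assembly factors differed less between the labels, and each overlapped. Ndufaf1, which helps to build the membrane arm, was between 28.6 and 32.1 FPKM in KO-labelled libraries and between 29.3 and 33.4 FPKM in those labelled WT. Ndufaf2, a chaperone that is a paralog of the subunit Ndufa12, was between 22.7 and 30.6 FPKM against 26.1 and 36.2 FPKM, and its exons overlap those of a non-coding gene on the opposite strand by 1955 bases (B230220B15Rik). Ndufaf5, which hydroxylates Ndufs7, was between 5.91 and 6.94 FPKM against 6.48 and 7.87 FPKM. Ndufaf6, an early factor of the membrane arm, was between 10.6 and 11.4 FPKM against 10.1 and 12.4 FPKM. Ndufaf7, a methyltransferase, was between 11.7 and 13.6 FPKM against 11.7 and 14.3 FPKM. Their averaged log2 differences lay between -0.20 (Ndufaf2, SE 0.11, limma adjusted p = 0.367) and -0.02 (Ndufaf6, SE 0.07).

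The accessory subunits were compared by the place they hold in the enzyme. Those of the distal membrane arm included the other gene whose groups did not overlap. Ndufb3, a small subunit of that arm at chr1:58586384-58595964 (GRCm38, plus strand), was at 521, 479 and 494 FPKM in WT females, 403 and 442 FPKM in KO females, 458 and 462 FPKM in WT males and 371 and 423 FPKM in KO males. Its 4 KO libraries lay below the 5 WT libraries, at 410 ± 30.5 (SD, n = 4) and 483 ± 25.6 (SD, n = 5) FPKM. The averaged log2 difference of Ndufb3 was -0.23 (SE 0.07, limma adjusted p = 0.113), a ratio of 0.855. Without KO male 1 it was -0.18 (SE 0.07, limma adjusted p = 0.168). Of the gene, 6.72% of the 50-base stretches are shared with another gene. Ndufb9, the most abundant subunit, was at 1178, 1049 and 1140 FPKM in WT females, 1132 and 1219 FPKM in KO females, 1082 and 1018 FPKM in WT males and 964 and 957 FPKM in KO males. It differed by -0.03 (SE 0.07) on average and overlapped between the labels. Of the 10 genes of the distal arm, 7 had a difference above 0 in females and 9 one below 0 in males.

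In the proximal membrane arm, Ndufc2 was at 424, 402 and 387 FPKM in WT females, 377 and 397 FPKM in KO females, 393 and 399 FPKM in WT males and 329 and 325 FPKM in KO males. The KO males were the lowest libraries. The log2 difference of Ndufc2 was -0.06 (SE 0.08) in females and -0.28 (SE 0.09) in males, where its limma adjusted p of 0.160 was the lowest of the 45 members. Ndufa11, a membrane subunit with the lowest level of the 36, was at 41.7, 43.4 and 38.0 FPKM in WT females and 48.5 and 52.4 FPKM in KO females. In males it was at 41.5 and 38.3 FPKM in WT and 42.2 and 39.2 FPKM in KO, so it was higher with the KO label in females and overlapped in males. Its log2 difference was 0.30 (SE 0.09, limma adjusted p = 0.268) in females and 0.03 (SE 0.10) in males, and its exons overlap those of Vmac on the opposite strand by 70 bases. Ndufa1, another small membrane subunit, was at 587, 444 and 510 FPKM in WT females, 461 and 541 FPKM in KO females, 544 and 582 FPKM in WT males and 413 and 478 FPKM in KO males. It overlapped in females and was lower with the KO label in males, by -0.34 on the log2 scale (SE 0.15), the largest male difference of the 36 subunits, and did not pass (limma adjusted p = 0.324). Of the 9 genes of the proximal arm, 3 had a difference above 0 in females and 7 one below 0 in males.

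Around the NADH-oxidising tip, 5 of 7 accessory subunits had a difference above 0 in females and 6 of 7 one below 0 in males, with 0 called in either. Ndufab1, the mitochondrial acyl carrier protein, which the enzyme holds as a subunit, was at 462, 442 and 427 FPKM in WT females, 446 and 480 FPKM in KO females, 450 and 417 FPKM in WT males and 360 and 397 FPKM in KO males. Ndufa4 was between 1425 and 1736 FPKM in KO-labelled libraries against 1611 and 1759 FPKM in those labelled WT. Both overlapped between the labels.

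Taken by sex, more members had a difference above 0 in females and most had one below 0 in males. In females 28 of 45 were above 0, with a median log2 difference of 0.03, where all genes had a median of -0.07 and 39.8% above 0. That direction depended on the scale, since the median was -0.01 after quantile normalization, with 27 of 45 below 0, and -0.02 with each library rescaled to the same sum. In males 37 of 45 were below 0, with a median of -0.14, where all genes had a median of -0.08 and 60.1% below 0, and it was below 0 under each scaling except centring on the complex I subunits themselves (0.01). Without KO male 1 the male median of the members was -0.12 with 36 of 45 below 0, but that of all genes was -0.22. The members therefore lay below the median gene with that library and above it without. Averaged over the sexes 34 of 45 members were below 0, as were 62.5% of all genes, and both medians were -0.07.

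The difference between the sexes in the KO minus WT difference was tested as an interaction. It passed for 0 of the 45 members and 0.0% of all genes, and at an unadjusted p under 0.05 for 0 members against 7.01%. The ordinary linear model at an unadjusted p under 0.01 picked 1 member, Ndufs8, and 1.66% of all genes. The lowest limma adjusted p were 0.714 (Ndufv2, log2 -0.24, SE 0.12), 0.718 (Ndufa11, -0.27, SE 0.14) and 0.718 (Ndufab1, -0.26, SE 0.13). In direction 40 of 45 members and 7 of 7 core subunits had an interaction below 0, with a median of -0.18, where 51.3% of all genes were below 0 and their median was -0.01. Centring on the subunits themselves made the members' median 0.01. Without KO male 1 the medians were -0.17 for the members and -0.13 for all genes.

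**Figure D3:**
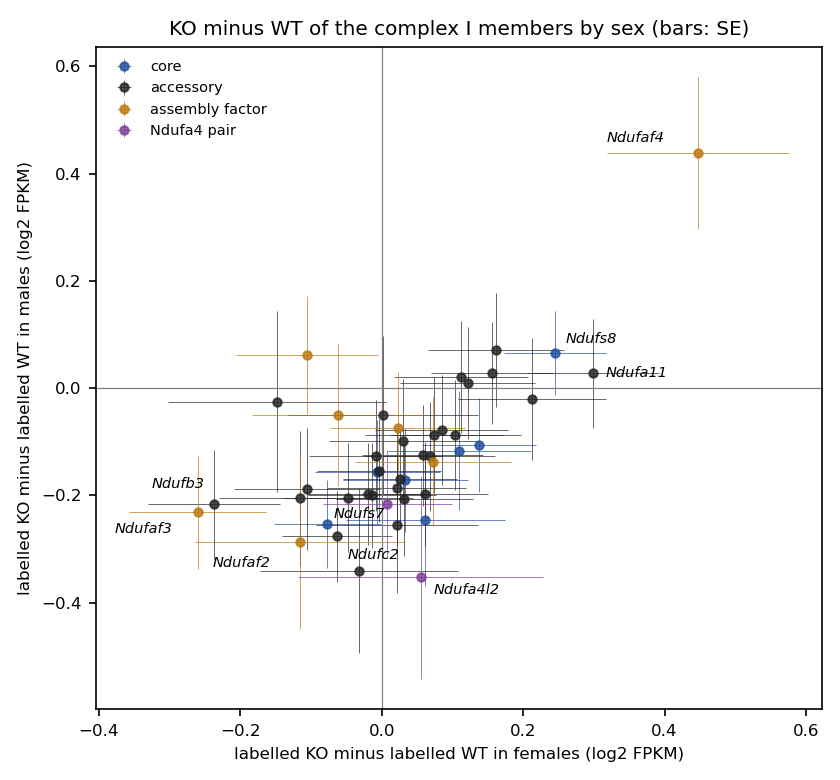
Log2 difference of FPKM between libraries labelled KO and WT for each of the 45 genes, in females (x axis) and in males (y axis), with bars of 1 standard error from limma. Most points lie right of 0 in females and below 0 in males (medians of 0.03 and -0.14; the female median was -0.01 after quantile normalization and -0.02 after rescaling to the same sum), and Ndufaf4 stands alone at 0.45 and 0.44.

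The clearest common direction was between the sexes. All 36 subunits had lower mean log2 levels in males than in females when averaged over the labels, with a median log2 difference of -0.17, where all genes had a median of 0.01 and 48.5% were below 0. Among all 45 members 43 were below 0, the exceptions being Ndufaf4 (0.13, SE 0.10) and Ndufaf1 (0.01, SE 0.07). The members' median was between -0.22 and -0.13 under the other scalings but 0.01 when each library was centred on the subunits themselves, and without KO male 1 it was -0.15 with 42 of 45 below 0. Without that library all genes had a median of -0.06, with 8999 of 14675 below 0, so the gap between the members and the median gene was narrower. Limma called 0 members at an adjusted p under 0.05, and 2 of all genes (0.0136%). At an unadjusted p under 0.05 there were 22 members, each lower in males, against 10.4% of all genes, and with the ordinary linear model at an unadjusted p under 0.01 there were 8, against 3.14%. The direction was the same within each label. Between WT males and WT females 32 of 36 subunits were lower, with a median of -0.10. Between KO males and KO females 36 of 36 were lower, with a median of -0.26, or 35 of 36 and -0.24 without KO male 1. The members share libraries, so these counts describe the same 9 animals and not independent evidence from each gene.

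Single genes show the size of the sex difference. Ndufa4l2 was at 7.72, 8.49, 8.93, 9.54 and 7.92 FPKM in the 5 female libraries, WT first, and at 5.76, 6.46, 5.68 and 4.02 FPKM in the 4 male libraries. No male library reached the lowest female one, and the log2 difference was -0.66 (SE 0.13, limma adjusted p = 0.201). It was -0.53 with a limma adjusted p of 0.0400 when KO male 2 was left out, and its exons overlap those of Shmt2 on the opposite strand by 32 bases. Ndufs7, described above, was lower in each male than in each female library, with a log2 difference of -0.26 (SE 0.06, limma adjusted p = 0.241). Ndufb10, of the distal membrane arm, was at 619, 557, 587, 592 and 632 FPKM in females and at 511, 541, 492 and 473 FPKM in males. Its sexes did not overlap either, at a log2 difference of -0.25 (SE 0.06, limma adjusted p = 0.271). These genes were picked for their low p. How many members, or what share of all genes, had no overlap between the sexes was not counted.

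The libraries were then placed by the median deviation of the 36 subunits from each gene's own mean over the 9 libraries, on the log2 scale. It was 0.11, 0.01 and 0.06 in WT females, 0.05 and 0.17 in KO females, 0.00 and -0.06 in WT males, and -0.18 and -0.13 in KO males. KO female 2 was the highest library and the KO males the lowest, while the labels overlapped when the sexes were pooled. The medians of the assembly factors ran from -0.12 in KO male 1, also the lowest library of the subunits, to 0.08 in WT female 2, and a difference between these groups of genes was not tested. The other respiratory complexes and the mitochondrial ribosome moved with the subunits, from -0.15 to 0.14 for 44 genes of complexes II to V and from -0.13 to 0.10 for 77 genes of the ribosome. Males were below females for 40 of the 44 genes of complexes II to V (median log2 difference -0.17) and for 65 of the 77 ribosome genes (-0.12), so the sex order of the subunits was shared by other mitochondrial genes. The KO males also differed in composition. Mir6236, the entry of highest level, was at 27290 and 45730 FPKM in KO males, against 9505 to 18720 FPKM in the other 7 libraries, WT males included, and its part in the lower subunit levels of the KO males was not tested. With each library rescaled to the same sum without Mir6236, the male minus female difference averaged over the labels was below 0 for 44 of 45 members (median -0.19). On that scale KO minus WT in males was below 0 for 37 of 45 members. Its median was -0.15 for the members and -0.09 for all genes.

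**Figure D4:**
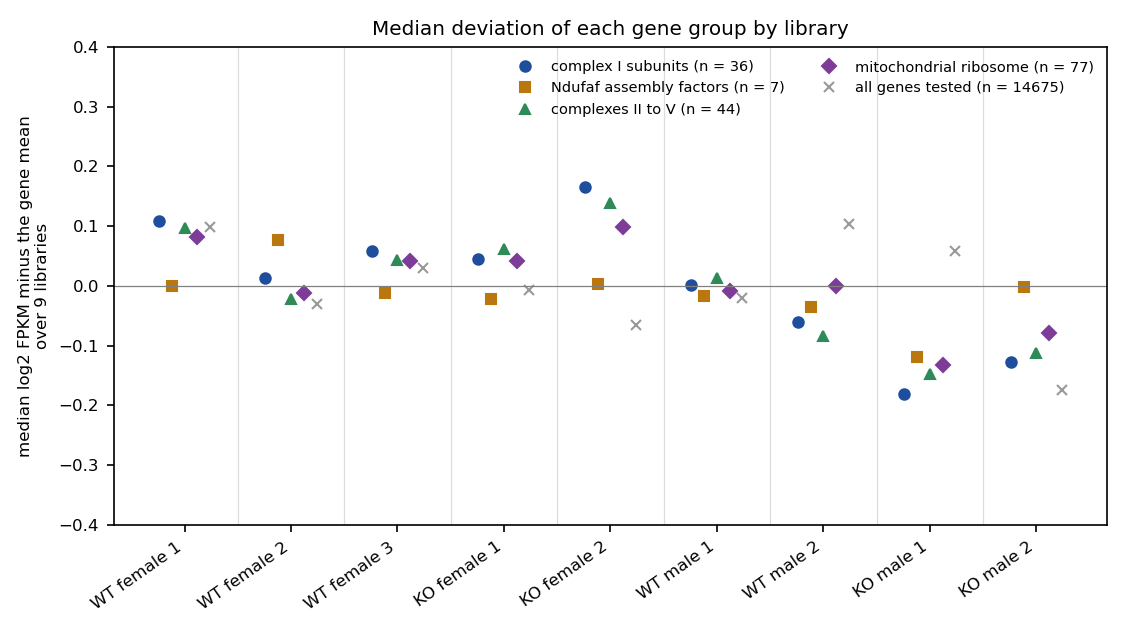
Median log2 deviation of each gene group from the gene means over 9 libraries, 1 column per library, for the 36 complex I subunits (blue circles), the 7 assembly factors (orange squares), 44 genes of complexes II to V (green triangles), 77 mitochondrial ribosome genes (purple diamonds) and all 14675 genes tested (grey crosses). Subunits, complexes II to V and ribosome lie together in each library and are lowest in the KO males (-0.18 and -0.13 for the subunits).

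In the KO minus WT comparison, too, complex I resembled its neighbours. Genes of complexes II to V had medians of 0.07 in females and -0.10 in males, with 34 of 44 above 0 in females and 39 of 44 below 0 in males. The ribosome had medians of 0.04 and -0.13. Averaged over the sexes, where 3.6% of all genes were called, 2 of the 44 were called higher, Cox6a2 (2.57, SE 0.53, limma adjusted p = 0.0456), the striated muscle form of a cytochrome c oxidase subunit, and Atp5g1 (1.51, SE 0.29, limma adjusted p = 0.0413), a subunit of ATP synthase. Cox6a2 was at 65 to 152 FPKM in KO-labelled libraries and 5 to 42 FPKM in those labelled WT, in the same direction as the muscle markers given above. Atp5g1 was at 26 to 86 FPKM against 12 to 25 FPKM, in that direction too. Both genes and the summed muscle markers were highest in KO male 1, and the part of muscle in these calls was not tested. Of the 77 ribosome genes 2 were called lower, Mrpl30 (log2 -0.32, SE 0.07, limma adjusted p = 0.0492) and Mrps6 (-0.38, SE 0.08, limma adjusted p = 0.0451), both proteins of the mitochondrial ribosome. Of the 45 complex I members 0 were called, and their largest averaged difference was the 0.44 of Ndufaf4.

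To see which members departed from the rest of the complex, each was set against the median subunit of the same library. On that scale 5 members were higher in every library labelled KO than in every library labelled WT, as were 3.23% of all genes, and 1 was lower in every one, as were 3.53%. Those above were Ndufaf4 by 0.52, Ndufa11 by 0.22, Ndufs8 by 0.21, Ndufa12 by 0.16 and Ndufb7 by 0.14 on the log2 scale, and the 1 below was Ndufc2, at -0.11. Ndufaf3 and Ndufb3, lower in every KO library in FPKM, overlapped between the labels on this scale. The subunits set this median, so it takes out variation that they share but not that of other genes. The shares over all genes are therefore not a like background for the members. In FPKM 1 of the 45 members was higher in every KO library, against 3.03% of all genes, and 2 were lower, against 6.04%. Ndufa12 and Ndufb7, accessory subunits of the NADH-oxidising part and of the distal membrane arm, were named after their values were seen, and 26.2% of the 50-base stretches of Ndufa12 are shared with other genes. Relative to the median subunit Ndufs8 was at -0.28, -0.17, -0.24, -0.25 and -0.21 in the 5 libraries labelled WT and at -0.003, -0.06, -0.02 and -0.02 in the 4 labelled KO. Its level was thus near that of the median subunit in the KO libraries and under it in the WT libraries. Ndufs8 is itself among the subunits that set this median, so its nearness to the median is in part a comparison with itself.

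Complex I genes under other names and known regulators of mitochondrial genes were read in the same fits. Of 12 assembly or subunit genes without the Nduf name, 0 were called in any of the 5 comparisons. Averaged over the sexes the lowest adjusted p among them were those of Tmem261, a factor of the distal membrane arm (log2 -0.26, SE 0.11, limma adjusted p = 0.253), and Tmem70, an assembly factor of complexes I and V (0.14, SE 0.06, limma adjusted p = 0.286). Of 12 regulators 1 was called, averaged over the sexes, where 3.6% of all genes were called. It was Esrrb, an oestrogen-related receptor, at 1.54 ± 0.217 (SD, n = 4) FPKM in KO-labelled libraries and 0.798 ± 0.274 (SD, n = 5) FPKM in those labelled WT (log2 1.06, SE 0.21, limma adjusted p = 0.0431). Its paralogs Esrra and Esrrg were more abundant and were not called. Esrra had means of 74.37 FPKM in KO-labelled and 69.69 FPKM in WT-labelled libraries (averaged over the sexes, limma adjusted p = 0.741). Esrrg had means of 4.203 and 3.581 FPKM (limma adjusted p = 0.5135). Nrf1, the factor whose motif letters stand before Ndufaf4 and Ndufa11, was between 2.50 and 4.56 FPKM in KO-labelled libraries and between 1.87 and 3.32 FPKM in those labelled WT, and Ucp1 averaged 2504 ± 350 (SD, n = 4) and 1820 ± 384 (SD, n = 5) FPKM (log2 0.52, SE 0.13, limma adjusted p = 0.0739).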

How the data were processed

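RNA from brown adipose tissue of 9 mice was sequenced after poly A selection (TruSeq). Per the submitters' processing notes and methods, the authors used bcl2fastq 1.8.4, TopHat2 2.0.11 and Bowtie with the mouse mm10 (GRCm38) genome, and deposited FPKM per gene symbol, 1 table per animal, not pooled. The annotation, the handling of fragments that match several places and the strand setting were not given in the sources used here. Counts are not held in these tables, so the depth is unknown and no counting interval is given. Depth read from the steps of low values varied from 0.914 to 1.14 relative to WT female 1.

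Genes above 0 FPKM in all 9 libraries (14675) entered limma 3.58.1 (R 4.3.3) on log2 FPKM without a pseudocount, with 1 mean per group of sex and label, a mean-variance trend and Benjamini-Hochberg adjustment over all of them. The study's form of test, a linear model per gene at an unadjusted p under 0.01, was run as an alternative. Its averaged and sex contrasts picked 1107 and 461 of all genes. These are not the counts that the study reported for genotype and sex, so the members' counts in these 2 contrasts need not be the study's. The 5 contrasts were KO minus WT in females, in males and averaged, their interaction, and male minus female. Fitting was tested on simulated data. Positions came from GENCODE M21, and promoters from RefSeq.

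Values in every library are given for the core subunits, except for 1 member that is not reported here by name, for the 5 members of lowest p in each KO minus WT contrast and for the 3 of lowest p for the interaction and for sex. They are given, in places as ranges, for the assembly factors, the 2 members of highest and of lowest level, Ndufa4 and Ndufa4l2. The members, gene lists and tests were chosen with earlier results of these data known. P-values measure the spread between animals of 1 colony.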

Additional observations from a re-analysis of the deposited data

Results flagged for a closer look

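Ndufs8 was the 1 member of 45 whose interaction was under an unadjusted p of 0.01 in the study's own linear model. That share is near the 1.66% of all genes, so it does not set the members apart. The KO minus WT difference of Ndufs8 was 0.25 (SE 0.07) in females and 0.07 (SE 0.08) in males on the log2 scale, an interaction of -0.18 (SE 0.11). With limma the interaction had an unadjusted p of 0.133 and an adjusted p of 0.729, so it did not pass before or after adjustment. Ndufs8 was higher in the libraries labelled KO than in those labelled WT within each sex.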

How the results depend on the processing

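No paired analysis was possible because each library is a different animal and the groups share no replicate number in the labels. Of 399 gene values recomputed under the alternatives, 390 kept their direction and their side of the threshold, 9 passed it anew and 0 changed sign. Many of these outcomes were fixed beforehand. Leaving out a library of 1 sex cannot change a difference within the other sex, and dropping the mean-variance trend changes no difference. The genes were also picked for low p in these data, so the count of kept directions is not a measure of robustness. Averaged over the sexes, 1 member was called, Ndufaf4, with a mean FPKM of at least 1, with a pseudocount of 0.1 or 1, after rescaling without Mir6236 and after centring on the complex I subunits, the last 2 chosen after seeing the data, and 3 were called (Ndufaf3, Ndufaf4 and Ndufb3) after rescaling each library to the same sum. The limma adjusted p of Ndufaf4 ranged from 0.0385 to 0.160 over its alternatives. The linear model at an unadjusted p under 0.01 gave 1, 2, 5, 1 and 8 members in females, in males, averaged, for the interaction and for sex.

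Median centring moved the median of all genes by 0.11 in females and -0.10 for the interaction. It gave member medians of 0.13 in females, -0.0096 averaged, -0.28 for the interaction and -0.22 for sex. Rescaling to the same sum gave -0.23 in males, -0.14 averaged and -0.22 for sex, and quantile normalization gave -0.12 for the interaction. Over all genes rescaling also moved the count of averaged calls, from 529 (210 higher) to 1062 (246 higher), while median centring gave 222 (130 higher) and quantile normalization 444 (228 higher). Leaving out 1 library at a time gave member medians of -0.026 (without KO female 2) to 0.081 (without KO female 1) in females, -0.18 to -0.10 in males, -0.09 to -0.04 averaged, -0.21 to -0.12 for the interaction and -0.19 to -0.14 for sex. It gave 0 called members in each comparison except sex, where Ndufa4l2 was called without KO male 2, a range of 0 to 1. A group left with 1 library was assumed to vary like the others. The cause of these changes was not tested. With 2 or 3 libraries in a group, differences near 0.1 on the log2 scale could not be told from the spread. Larger ones did not pass in the main fit either, such as the averaged -0.25 of Ndufaf3 and -0.23 of Ndufb3. Ndufaf4, at 0.45 in females and 0.44 in males, did not pass within either sex. The absence of calls therefore does not exclude changes of these sizes.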
